A study of Mus musculus with 8 samples.

Results

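The smooth muscle contractile genes described here are Acta2, Tagln, Cnn1, Myh11, Mylk, Actg2, Tpm1, Tpm2, Des and Smtn, a set chosen by name from contractile genes that depend on serum response factor (SRF), its cofactors of the MRTF family and TGF-beta. They are 10 of the 27745 gene names, and 20 of the 41174 gene probes, of an Agilent whole mouse genome array. RNA came from cultured mouse embryonic fibroblasts (MEFs), which are primary cells grown out of embryos, of C57BL/6J mice that were either Lats2-/- or Lats2+/+, with no treatment. LATS2 is a kinase of the Hippo pathway, which restrains the transcriptional coactivators YAP and TAZ. The labels named 3 litters (112, 116 and 121). Each was taken as 1 Lats2-/- and 1 Lats2+/+ culture, so that 6 RNA extracts were counted on 8 arrays. The array titles of litter 121 name 2 replicates, each with a dye exchange, and these were read as repeats of the same extracts. Each array held both extracts of a litter, in Cy5 and Cy3, and litters 112 and 116 had 2 arrays with the dyes exchanged, whereas litter 121 had 4. The age of the embryos was not given in the sources used here. With each litter taken as 1 culture of a genotype, genotype and culture cannot be told apart within a litter.

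Contractile genes of smooth muscle encode actin, myosin and the proteins that set how they slide on each other. SRF binds a short DNA element called the CArG box, and it turns contractile genes on together with myocardin or with MRTF proteins, which enter the nucleus when actin is polymerised. TGF-beta also raises these genes, and fibroblasts that switch them on are called myofibroblasts. Fibroblasts in culture are known to vary in how far they take up this contractile state, and smooth muscle alpha-actin, the product of Acta2, is its usual marker.

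Values are of 2 kinds. A signal is the log2 of the background-corrected brightness of a probe in 1 extract, and because probes differ in brightness for the same RNA, a difference in signal between probes is not read as a difference in RNA. A ratio is the log2 of Lats2-/- over Lats2+/+ within a litter, averaged over the arrays of that litter, and the litter is the replicate (n = 3). Tests were those of limma on the 3 litter ratios against 0, with Benjamini-Hochberg adjustment over 22642 probes, those that a majority of arrays detected above background in 2 or 3 extracts of a genotype. Each gene was represented by its brightest such probe, which gave 14695 genes.

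Of the 10 contractile genes, 9 had such a probe and 18 of their 20 probes were tested. Desmin (Des), the intermediate filament of muscle cells, was not well above background on any of the 8 arrays, and its signals lay between 6.02 and 6.10 in all 6 extracts. The arrays of a litter agreed closely for the 9 genes, with a median SD between arrays of 0.09 in litter 112, 0.05 in litter 116 and 0.06 in litter 121. The litters did not. All 9 genes were lower in Lats2-/- cells in litter 112 and all 9 were higher in litter 116, while 5 were higher and 4 lower in litter 121. Myh11 is counted here by ratios of -0.07 and 0.07 in litters 112 and 116. It was not above background in either extract of litter 112, where its 2 arrays gave 0.01 and -0.16. The share of all genes with each sign was not counted, and their median ratios were 0.02, 0.01 and 0.01 in litters 112, 116 and 121. The extract that stood apart for these genes was the Lats2+/+ extract of litter 116, which had the lowest signal of the 6 for 6 of the 9 genes, against 19.7% of all genes tested.

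No contractile gene passed an adjusted p of 0.05 in limma, where 0% of all genes did (0 of 14695), and the smallest adjusted p among the 9 was 0.775. At a fold change of 2 with an unadjusted p under 0.05, the thresholds named in the study's methods, 0 of the 9 genes were called against a background of 1.09%. At an unadjusted p under 0.05 alone the count was again 0, against 7.61%. None of the 9 genes had the same sign in all 3 litters, a property of 30% of all genes. The median of the 9 mean ratios was 0.11, and that of all genes was 0.01. By litter the median ratio of the 9 genes was -0.41, 1.28 and 0.02 in litters 112, 116 and 121, whereas the medians over all genes were 0.02, 0.01 and 0.01.

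**Figure D1:**
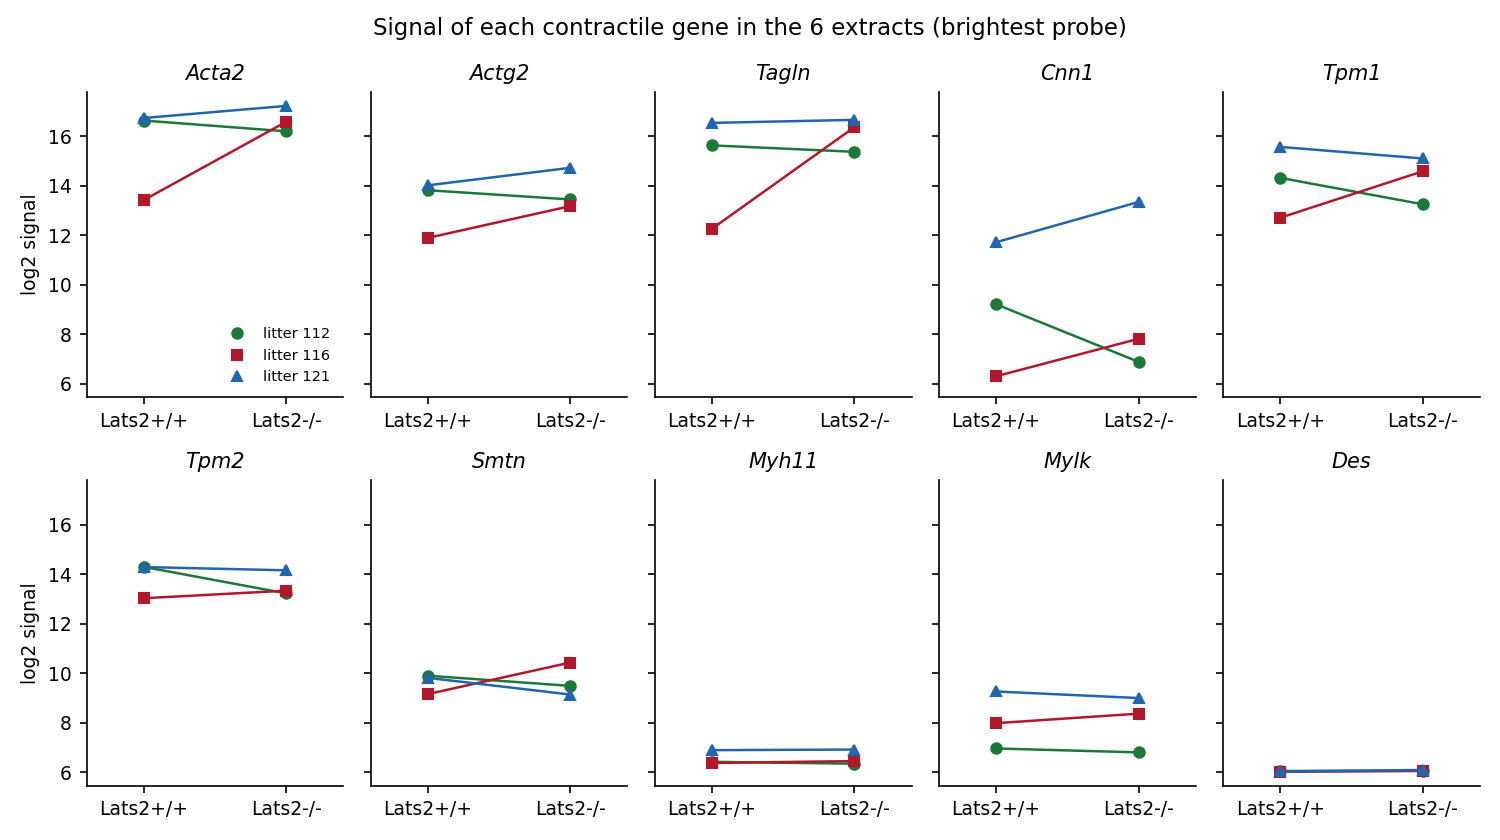
The panels plot the log2 signal (vertical axis) of the brightest probe of each of the 10 contractile genes in the Lats2+/+ and Lats2-/- extracts (horizontal axis), with 1 line for each litter and no error bars since each point is 1 extract. For Acta2 and Tagln, 5 of the 6 extracts lie close together and the Lats2+/+ extract of litter 116 lies below them, while Des stays near 6 throughout.

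Acta2 encodes smooth muscle alpha-actin. Its brightest probe, A_52_P420504, lies at chr19:34307567-34307626 on the minus strand (mm8, the build in the file headers) and is spotted 10 times on each array. In litters 112, 116 and 121 the Lats2+/+ signals of this probe were 16.62, 13.41 and 16.73, and the Lats2-/- signals were 16.19, 16.57 and 17.22. A single extract was low, the Lats2+/+ extract of litter 116, which lay 2.78 below the lowest of the other 5 (6.86-fold), and the 2 genotypes overlapped. The litter ratios were therefore -0.43, 3.16 and 0.49, averaging 1.07 ± 1.87 (SD, n = 3 litters), with a 95% confidence interval of -1.15 to 3.29 and a limma adjusted p of 0.793. Its spread over litters was larger than that of 98.0% of all genes. In litter 121 the ratio of this probe also moved with the dye, being 0.70 and 0.72 where the Lats2-/- extract was in Cy5 and 0.27 and 0.27 where it was in Cy3.

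The promoter of Acta2 is shown because, of the 7 contractile promoters searched, it alone holds CArG-like elements, and it also holds a TEAD motif, the element bound by the DNA-binding partners of YAP and TAZ. The sequence is the RefSeq sequence of the 250 bases before the annotated start, at chr19:34255374-34255623 on the minus strand (GRCm38.p6), 5′ to 3′. Capitals mark GGAATG and then 2 CArG-like elements, and the 3 E-boxes (CANNTG) of this stretch are left in lower case.
Acta2: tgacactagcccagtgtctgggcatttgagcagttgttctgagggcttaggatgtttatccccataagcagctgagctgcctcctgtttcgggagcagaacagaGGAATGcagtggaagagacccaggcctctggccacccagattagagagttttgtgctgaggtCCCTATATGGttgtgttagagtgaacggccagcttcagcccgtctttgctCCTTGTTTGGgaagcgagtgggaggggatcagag
The GGAATG match begins 146 bases before the start, CCCTATATGG begins 84 bases before it and CCTTGTTTGG begins 34 bases before it.

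The other Acta2 probes differed in how far litter 116 moved. Probe A_52_P210078, at chr19:34307204-34307263 and close to the brightest one, had ratios of -0.30, 4.09 and 0.27, so that its Lats2-/- signal was 17.1-fold higher in litter 116. Probe A_51_P450957 was also bright and had ratios of -0.31, 1.25 and 0.32. The remaining probes carry the accessions of other transcripts, AK077294 for A_52_P239556 (ratios of -0.12, 1.07 and 0.08) and AK033744 for A_52_P644232 (0.16, 0.89 and 0.97). All 5 probes were thus higher in Lats2-/- cells in litter 116, by 0.89 to 4.09 on the log2 scale.

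Probe A_52_P644232 was the 1 of 18 tested contractile probes with an unadjusted limma p under 0.05, against a background of 6.84% over all probes, and the 1 of 18 with 1 sign in all 3 litters, against 29.7%. Its mean ratio was 0.67 ± 0.45 (SD) with an interval of 0.08 to 1.26, and its limma adjusted p was 0.711. The Lats2+/+ extract of litter 116 gave no detected signal for it, so that its change in that litter is a bound, at least 1.85-fold higher in Lats2-/- cells. Probes for actin genes may share target sequence, and how far these 5 probes read the other actins was not tested. Acta1 and Actc1, the skeletal and cardiac alpha-actins, had litter ratios like those of Acta2, at -0.47, 3.48 and 0.35 for Acta1 and -0.41, 3.37 and 0.55 for Actc1 (Actc1 was singled out after its values were seen).

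Actg2 encodes the gamma-actin of enteric smooth muscle and was measured by a single probe. Its Lats2+/+ signals were 13.81, 11.89 and 14.01 in litters 112, 116 and 121, and its Lats2-/- signals were 13.44, 13.17 and 14.72. The lowest extract was again the Lats2+/+ extract of litter 116, and the genotypes overlapped. The ratios of -0.37, 1.28 and 0.71 averaged 0.54 ± 0.84 (SD over 3 litters), with an interval of -0.49 to 1.57. A limma adjusted p of 0.775 made it the contractile gene nearest to the threshold.

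Tagln encodes transgelin, or SM22-alpha, an actin-binding protein that is among the earliest markers of smooth muscle. Probe A_51_P450527 (chr9:45681009-45681068, minus strand, mm8) gave Lats2+/+ signals of 15.62, 12.26 and 16.53 and Lats2-/- signals of 15.36, 16.36 and 16.65. As for Acta2, the Lats2+/+ extract of litter 116 was low, 3.1 below the lowest of the other extracts (8.60-fold), and the remaining signals of the genotypes overlapped. The litter ratios were -0.26, 4.10 and 0.12, averaging 1.32 ± 2.41 (SD over 3 litters; limma adjusted p = 0.799). In litter 116 the Lats2-/- signal was 17.2-fold higher, a ratio above that of 99.9% of all genes in that litter. The second probe, A_52_P517683, showed the same order of litters with ratios of -0.19, 3.5 and 0.05. Without litter 116 the mean ratio of Tagln was -0.07 and that of Acta2 was 0.03.

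Cnn1 encodes calponin 1, an actin-binding protein that dampens myosin ATPase activity and marks the later stages of smooth muscle differentiation. Its Lats2+/+ signals were 9.21, 6.31 and 11.71 in litters 112, 116 and 121, and its Lats2-/- signals were 6.89, 7.82 and 13.34. Both extracts of litter 121 lay above all others, so that the litters spread over 5.41 in Lats2+/+ cells and 6.45 in Lats2-/- cells, more than the genotypes differed within any litter. The ratio was -2.32 in litter 112, which is 5.00-fold lower in Lats2-/- cells and at percentile 0.136 of all genes there, and it was 1.51 and 1.63 in litters 116 and 121. These average 0.27 ± 2.25 (SD over 3 litters), at a limma adjusted p of 0.965. Cnn1 was below detection in the Lats2+/+ cells of litter 116, and the bound there was at least 2.85-fold higher in Lats2-/- cells.

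Tropomyosins lie along the actin filament and gate its contact with myosin, and Tpm1 and Tpm2 supply the main forms in smooth muscle. For Tpm1 the Lats2+/+ signals of the brightest probe were 14.31, 12.70 and 15.56, and the Lats2-/- signals were 13.25, 14.58 and 15.09. The genotypes overlapped, with the highest and the lowest of the 6 signals both in Lats2+/+ extracts. Ratios were -1.07, 1.88 and -0.47, averaging 0.11 ± 1.55 (SD over 3 litters; limma adjusted p = 0.981), and the second Tpm1 probe of the same transcript had -1.22, 2.01 and -0.62. The third probe, A_51_P325173 for AK077713, had a ratio of -0.01 in litter 112, where the others were lower by more than 1, and of 1.12 and -0.30 in the other litters. The probes of this gene may read different transcripts, which was not tested.

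For Tpm2 the Lats2+/+ signals were 14.29, 13.03 and 14.28, and the Lats2-/- signals were 13.22, 13.33 and 14.15. The 2 extracts of litter 121 were nearly alike, and litter 112 had the lower Lats2-/- extract. The ratios of -1.07, 0.31 and -0.13 averaged -0.30 ± 0.70 (SD over 3 litters), with an interval of -1.17 to 0.57 and a limma adjusted p of 0.852. The second Tpm2 probe differed from these ratios by less than 0.1 in each litter, at -1.05, 0.25 and -0.10.

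Smtn encodes smoothelin, an actin-associated protein of contractile smooth muscle cells. Its signals were 9.90, 9.16 and 9.82 in Lats2+/+ extracts and 9.49, 10.43 and 9.14 in Lats2-/- extracts, and both the highest and the lowest belonged to Lats2-/- cells. The litter ratios were -0.41, 1.27 and -0.67, averaging 0.06 ± 1.06 (SD over 3 litters; limma adjusted p = 0.984).

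Myh11, the smooth muscle myosin heavy chain and the most specific marker of the differentiated muscle cell, had signals of 6.43, 6.38 and 6.90 in Lats2+/+ extracts and 6.35, 6.46 and 6.92 in Lats2-/- extracts, and the probe was above background in 3 of the 6 extracts. Both extracts of litter 121 were the highest, and the genotypes differed by less than 0.1 in every litter. Its mean ratio was 0.01 ± 0.07 (SD, n = 3 litters), with an interval of -0.27 to 0.29, and a probe this close to background leaves little room for a lower value.

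Mylk encodes myosin light chain kinase, which starts contraction by phosphorylating the regulatory light chain. Probe A_52_P575217 gave Lats2+/+ signals of 6.97, 7.99 and 9.26 and Lats2-/- signals of 6.81, 8.37 and 9.0. The order of the litters was the same in both genotypes, litter 112 being lowest and litter 121 highest, and the Lats2+/+ extract of litter 116 was not low for this gene. The ratios were -0.16, 0.38 and -0.26, averaging -0.01 ± 0.35 (SD over 3 litters) with an interval of -0.50 to 0.48. A second probe, A_52_P145912, had -0.24, 0.44 and -0.16, and the third, A_51_P272407, was not well above background on any array.

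**Figure D2:**
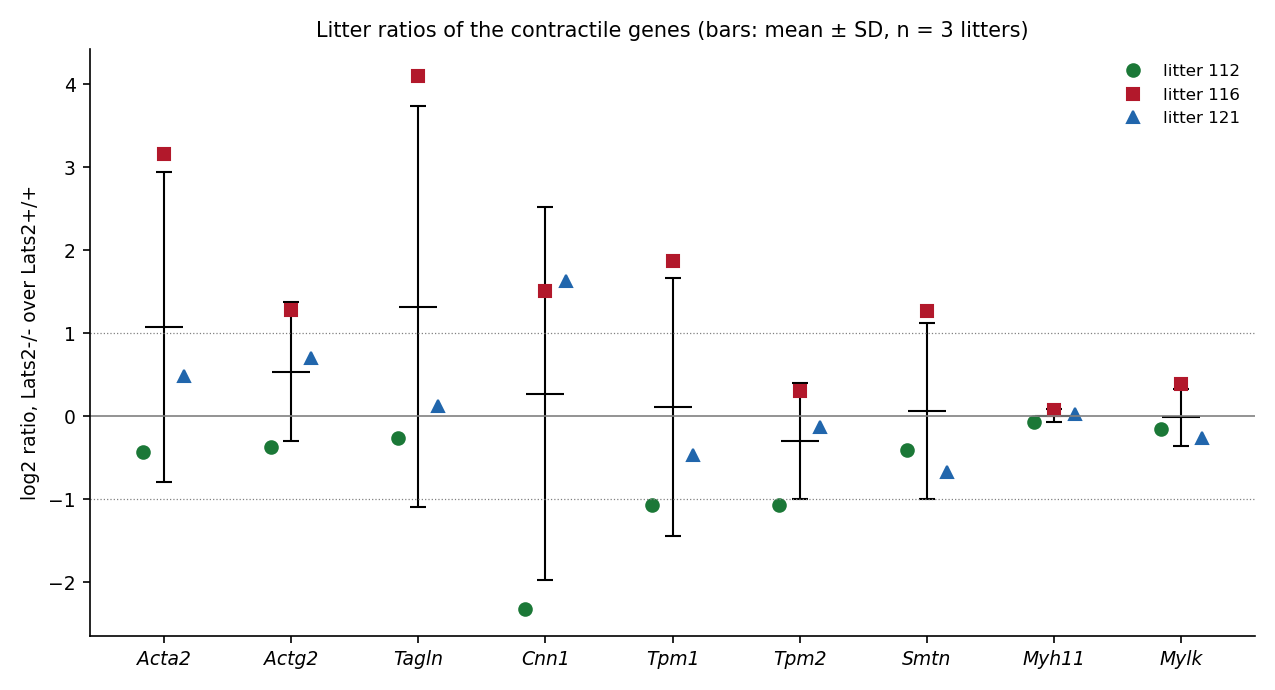
The log2 ratio of Lats2-/- over Lats2+/+ (vertical axis) is plotted for the 9 contractile genes with a tested probe (horizontal axis), with 1 point for each litter, and bars give the mean ± SD over 3 litters. The points of litter 112 lie below 0 and those of litter 116 above 0 for every gene, with those of Myh11 close to 0, and the dotted lines mark a change of 2-fold.

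At least 1 litter passed 2-fold for 7 of the 9 contractile genes, against 15.8% of all genes. In litter 116, 6 of the 9 were at least 2-fold higher in Lats2-/- cells (Acta2, Tagln, Cnn1, Tpm1, Actg2 and Smtn), against 5.57% of all genes, and 0 were lower by that much, against 3.7%. In litter 112, 3 were at least 2-fold lower (Cnn1, Tpm1 and Tpm2), against 1.47%, and 0 were higher, against 3.17%. Litter 121 had 1 gene at least 2-fold higher, Cnn1, against 4.05%, and 0 lower, against 3.23%. Cnn1 and Tpm1 passed 2-fold in both directions among the litters, as did 2.25% of all genes. The median SD of the ratios over litters was 1.06 for the 9 genes and 0.28 for all genes. The SD was above that of 99.2% of all genes for Tagln, 98.9% for Cnn1 and 96.8% for Tpm1, but above only 60.9% for Mylk and 9.74% for Myh11.

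**Figure D3:**
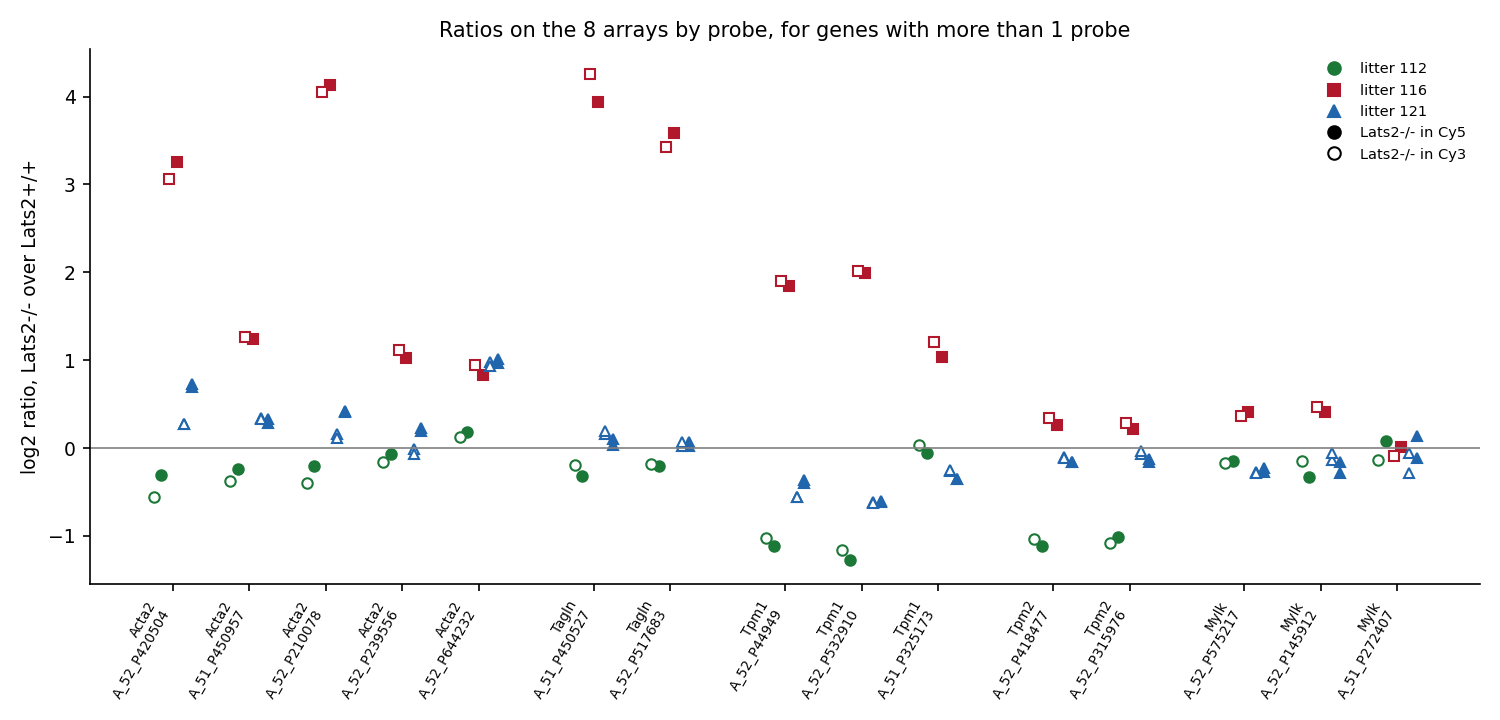
The log2 ratio of Lats2-/- over Lats2+/+ on each of the 8 arrays (vertical axis) is plotted for every probe of the contractile genes with more than 1 probe (horizontal axis), with litters by colour and filled or open points for Lats2-/- in Cy5 or Cy3. Arrays of a litter lie close together, and the Acta2 probes spread from 0.89 to 4.09 in litter 116 as litter means.

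The slides did not separate from the litters, since litters 112 and 116 shared a slide and litter 121 had the other. Within the first slide the ratios of litters 112 and 116 had opposite signs for all 9 contractile genes, though Myh11 was near background at -0.07 and 0.07. The share of all genes with opposite signs there was not counted. The slide and litter 121 cannot be told apart.

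The check of the targeted gene was partial. Of 4 Lats2 probes, A_52_P425064 was lower in Lats2-/- cells in all litters, at -1.33, -1.05 and -0.56, and the other 3 were lower in litters 112 and 116 and higher in litter 121, by 0.80 to 1.17. Which of them lie in the deleted part of the gene was not given in the sources used here, so that in these arrays the extract of litter 121 is Lats2-/- by its label. The study reports a western blot of the knockout in Lats2-/- MEFs, and its text does not name the litter blotted. Ctgf and Ankrd1, 2 known YAP and TAZ targets chosen for their earlier results in these data, had ratios of 1.55, 1.18 and 1.67 and of 3.03, 4.82 and 3.39, each with a limma adjusted p of 0.634.

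Markers of other cells were read in the same extracts. In bulk RNA, fewer cells of a type and less RNA per cell cannot be told apart. Of 12 fibroblast markers, 10 were well above background in all 6 extracts, and their summed log2 level was 18.5, 18.6 and 19.3 in Lats2+/+ extracts and 18.6, 19.3 and 18.1 in Lats2-/- extracts. Of 16 smooth muscle markers, which include the 10 contractile genes, 9 were above background in all extracts, and Des and Myocd, the cofactor myocardin, were above it in none. Their summed level was 17.7, 15.2 and 18.2 in Lats2+/+ extracts and 17.2, 17.8 and 18.4 in Lats2-/- extracts, a sum that includes the contractile genes and so repeats their values.

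The skeletal and cardiac lists include Acta1 and Actc1, whose ratios are given above. The sum for 12 skeletal muscle markers ran from 10.8 to 13.1 in Lats2+/+ and from 12.1 to 13.4 in Lats2-/- extracts, and that for 9 cardiac markers ran from 10.96 to 14.7 and from 13.6 to 15.3. Myod1, Myf5 and Myog, which define skeletal muscle, and Myh6 and Myl2, which define heart muscle, were not above background in any extract. Other cardiac markers were detected, with Tnni3 above background in 6 extracts, Tnnt2 and Nkx2-5 in 5 and Myh7 in 2. In the Lats2-/- extract of litter 121 the signals of Tnnt2 and Myh7 were 11.08 and 9.90. On the skeletal list Mymk was above background in 6 extracts and Tnnt3 in 5. Pax7, a gene of muscle progenitors on the skeletal list, was above background in a single extract, the Lats2+/+ extract of litter 116, with a signal of 9.26. Of 9 pericyte markers, 4 were above background in all extracts and 4 in none, among them Rgs5, and the sum ran from 13.3 to 14.0 and from 13.7 to 14.8. The 7 endothelial markers summed to 8.96 to 9.07 in Lats2+/+ and 8.93 to 9.13 in Lats2-/- extracts, with Pecam1 and Cdh5 above background in none. The 6 blood markers summed to 8.87 to 8.93 and 8.95 to 9.86, with Ptprc above background in none. The sum of 9.86 was that of the Lats2-/- extract of litter 121, where Lyz1 had a signal of 9.14 and a ratio of 2.70. Cd68 was above background in 4 extracts. No endothelial or blood marker was above background in all extracts, so these sums lie largely near background.

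The sum for 8 epithelial and mesothelial genes in litter 116 was 12.2 for Lats2+/+ and 14.1 for Lats2-/- cells, against 9.24 to 10.68 in the other 4 extracts. A single gene, mesothelin (Msln), set this sum, with a signal of 14.03 in the second of these extracts and ratios of 1.52, 2.03 and 1.91 in litters 112, 116 and 121. Krt8 and Krt18 were detected above background in Lats2+/+ cells of litter 116 alone, and Epcam and Wt1 in no extract. Krt19, on the same list, had ratios of 2.42, 0.37 and 1.83 and was detected in 4 extracts. Its Lats2-/- signals were 8.67, 6.40 and 8.77, and the Lats2+/+ cells of litters 112 and 116 gave no detected signal. Cdh1 was detected only in Lats2-/- cells of litter 121, with a signal of 7.16 and a ratio of 1.09. Of the 12 fibroblast markers, 9 were higher in Lats2-/- cells in litter 112, where 14 of the 16 smooth muscle markers were lower. The 14 repeat the 9 contractile genes and include Myh11 and Hspb7, not above background in either extract of that litter. The share of all genes with these signs was not counted. In the Lats2-/- extract of litter 116, 10 of the 12 fibroblast markers were higher, such as Col1a1 at 2.75, Col3a1 at 3.70 and Dcn at 6.22. Vim at -1.19 and S100a4 at -0.97 were lower there. In litter 121, 10 of the 12 were lower in Lats2-/- cells, such as Col1a1 at -1.13, Col3a1 at -3.42, Dcn at -1.94, Thy1 at -3.66 and S100a4 at -3.61, and with Pdgfra not above background there (these genes were singled out after their values were seen). The part of these genes in the ratios of Acta2 and Tagln was not tested.

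The genes whose pattern over the 6 extracts was most like that of Acta2 were found among 12310 genes with a RefSeq symbol, by the root mean square difference of signals after each probe's mean was subtracted. The nearest were Pkp2, a desmosome protein, at 0.31, then Tagln and Acta1 at 0.37, Lims2, an adhesion adaptor, at 0.38, and Vcan, the matrix proteoglycan versican, at 0.39. All of these were lowest in the Lats2+/+ extract of litter 116, with ratios there of 2.67 for Pkp2, 2.62 for Lims2 and 3.56 for Vcan. The choice by likeness to Acta2 over the same signals largely fixed this. The other contractile genes stood at place 23 for Actg2, 76 for Tpm1, 384 for Tpm2, 1921 for Myh11, 2057 for Smtn, 9119 for Mylk and 11973 for Cnn1. The points share arrays and litters, so this order is a description.

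Of the genes listed as upstream regulators (SRF and its cofactors, TGF-beta ligands, receptors and Smads, Rhoa, Rock1, Rock2, and transcription factors such as Klf4, Foxo4 and Hic1), 21 of 24 were tested, and 4 had an unadjusted limma p under 0.05, all higher in Lats2-/- cells, against 7.61% of all genes. Tgfbr2, the type II TGF-beta receptor, had ratios of 0.95, 0.89 and 0.59, averaging 0.81 ± 0.19 (SD over 3 litters; limma adjusted p = 0.711). The inhibitory Smad7 had a mean of 0.68 ± 0.38, Srf had 0.46 ± 0.27 and Smad2 had 0.42 ± 0.16, each with a limma adjusted p of 0.711. Over the 21 genes the median ratios by litter were 0.17, 0.26 and 0.19. Myocd was not above background in any extract.

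Among other genes of the contractile apparatus and actin cytoskeleton, 41 of 45 were tested and 1 had an unadjusted limma p under 0.05, against 7.61% of all genes. That gene was Zyx, encoding the focal adhesion protein zyxin, at 0.58 ± 0.25 (SD, n = 3 litters; limma adjusted p = 0.711). The median ratios by litter were -0.32, 0.53 and 0.21, in the same order as those of the contractile genes. In litter 116, 13 of the 41 were at least 2-fold higher, against 5.57% of all genes, and 3 were lower by that much, against 3.7%. The widest spread was that of Myl9, the regulatory light chain that Mylk phosphorylates, at -2.87, 4.08 and 0.14, followed by Lmod1, the actin nucleator leiomodin 1, at -2.13, 2.87 and 0.49 (both singled out after their values were seen).

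A further list held other targets of SRF, which are early response genes such as Fos and Egr1 and also the cytoskeletal genes Zyx and Vcl, the LIM genes Fhl1 and Fhl2, and Srf, Mcl1 and Tuft1, and 16 of its 18 genes were tested. Of these, 8 had an unadjusted limma p under 0.05, all of them higher in Lats2-/- cells, against 7.61% of all genes, and 6 also passed 2-fold, against 1.09%. None passed the adjusted threshold. The list was drawn up with earlier results of these data known, so its counts are a description only. Jun, on the same list, was lower on average, with ratios of 0.52, -1.35 and -0.62. The transcription factor gene Egr2 had ratios of 5.85, 4.30 and 1.68, Fos had 5.43, 2.19 and 1.24, and Egr1 had 4.39, 2.93 and 0.81. For Junb the ratios were 2.48, 2.17 and 1.57 (mean 2.08 ± 0.46, SD; limma adjusted p = 0.634), and Ier2 and Ccn1 (Cyr61) had means of 1.54 ± 0.97 and 1.35 ± 0.61. The largest ratios of the Egr and Fos genes were in litter 112, where Acta2, Tagln and Cnn1 were lower in Lats2-/- cells. Zyx, Srf, Vcl and Fhl2 belong to 2 of the lists each and were counted in both. The difference between the contractile genes and these genes was not tested.

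**Figure D4:**
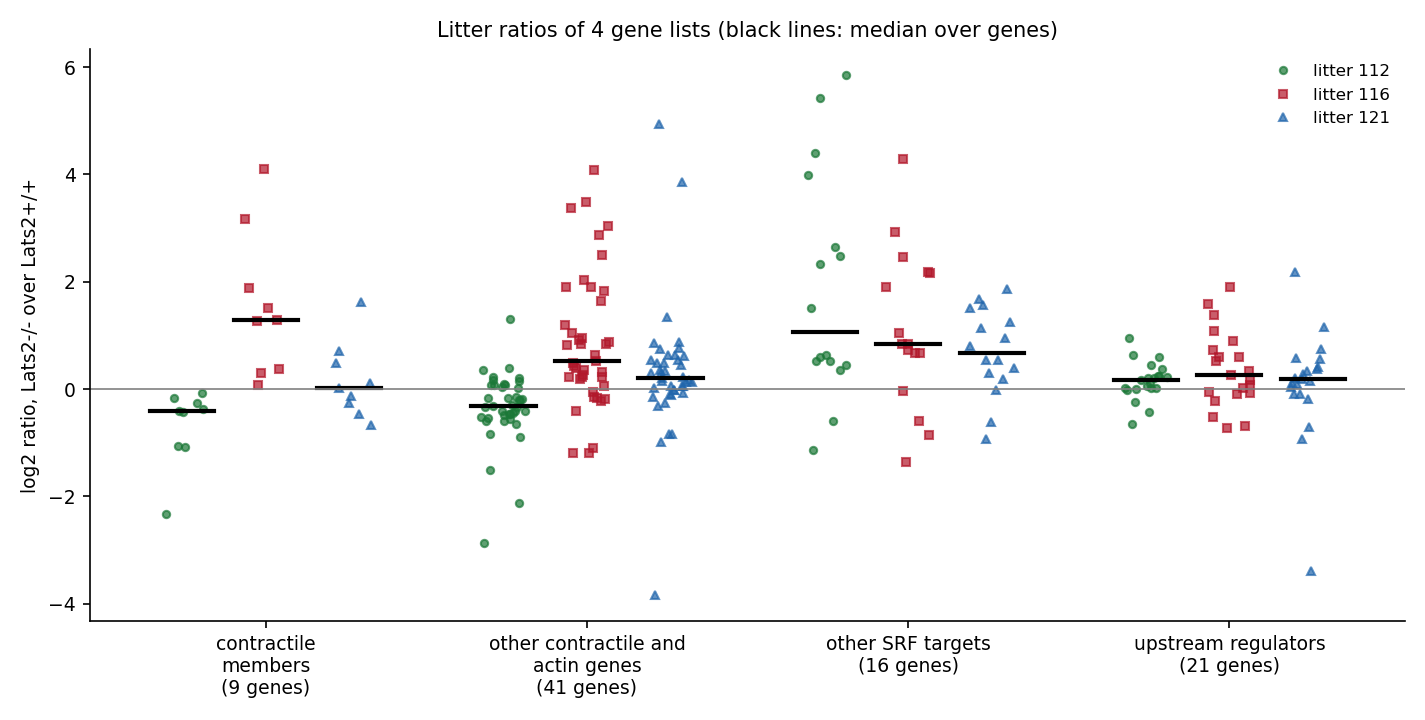
Each point is the log2 ratio of Lats2-/- over Lats2+/+ (vertical axis) of 1 gene in 1 litter, for the 9 contractile genes and for the 41 other contractile and actin genes, the 16 other SRF targets and the 21 upstream regulators (horizontal axis), and black lines are medians over genes. The median of the contractile genes goes from -0.41 in litter 112 to 1.28 in litter 116, whereas that of the other SRF targets is above 0 in each litter, at 1.07, 0.85 and 0.68. The lists were chosen with earlier results of these data known.

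Promoters from 250 bases before to 50 bases after the annotated start were taken from RefSeq (GRCm38.p6) for 7 of the 10 contractile genes, namely Acta2, Cnn1, Mylk, Tpm1, Tpm2, Des and Smtn. A CArG box is C bases, a run of A or T and then G bases, and a CArG-like element has a G or C at 1 place in that run. No exact CArG box was found in the 7 windows, against 1.63% of 32851 promoters. CArG-like elements occurred in Acta2 alone among the 7, against 8.5% of all promoters, and Acta2 had 2 of them, as did 0.679% of all promoters with 2 or more.

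The TEAD motif, searched as GGAATG on both strands, was found in 4 of the 7 windows, against 14.7% of all promoters. Besides Acta2 these were Tpm1, Smtn and Mylk, 56, 222 and 158 bases before the start. The 40 bases around each match are shown 5′ to 3′ along the gene, with the match in capitals, so that CATTCC is GGAATG on the opposite strand.
Tpm1 (chr9:67049247-67049286, minus strand): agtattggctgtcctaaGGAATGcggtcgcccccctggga
Smtn (chr11:3539492-3539531, minus strand): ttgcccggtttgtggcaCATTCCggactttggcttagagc
Mylk (chr16:34784775-34784814, plus strand): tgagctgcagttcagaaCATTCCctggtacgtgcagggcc
The E-box CANNTG was found in 6 of the 7 windows, against 72.3% of all promoters, and TATAAA, searched on both strands, in none, against 13.6%. The motifs marked did not overlap each other. Tpm1, Smtn and Mylk, which share the TEAD motif with Acta2, had ratios of opposite sign in litters 112 and 116, as did Cnn1 and Tpm2, which lack it. A match of letters is no evidence that a factor binds there.

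**Figure D5:**
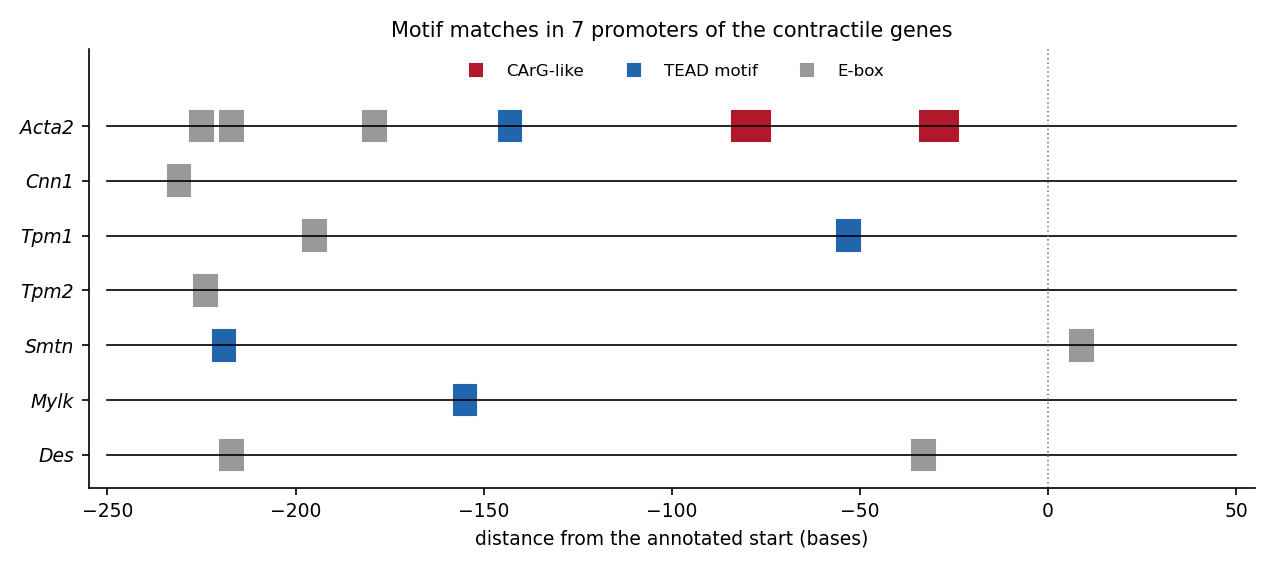
Motif matches are drawn as boxes to scale along the promoter windows of 7 contractile genes, with the distance from the annotated start in bases on the horizontal axis. Acta2 holds 2 CArG-like elements and 1 TEAD motif, and Cnn1, Tpm2 and Des hold E-boxes only.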

How the data were processed

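RNA of 3 litter pairs of MEFs was hybridised by the authors to 8 two-colour Agilent arrays with dye exchange. Deposited scanner tables give spot intensity and background, extracted with Feature Extraction 10.7.3.1 per the file headers (10.5.1.1 in the submitters' processing notes), and the authors' value table gives log10 ratios. In R 4.3.3 with limma 3.58.1, gene spots without outlier flags were corrected by normexp (offset 50) and loess, means were taken over repeat spots and then over a litter's arrays, and log2 litter ratios were tested by the moderated test of limma. Genotypes are paired within a litter by their hybridisation on the same arrays. Signals of extracts were scaled by Aquantile. Named genes were the contractile genes, genes of 3 lists with an unadjusted p under 0.05 and 1 sign in all litters, and the 5 genes most like Acta2. Members and lists were chosen with earlier results of these data known. The test was checked on simulated data. The number of litters limits precision, and p-values measure the spread between these litters. Annotation of the mm8 build was not used here.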

Additional observations from a re-analysis of the deposited data

How the results depend on the processing

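In 15 alternatives (another normexp offset, the processed signals of Feature Extraction, the deposited value table, median centring, no filter or a strict one on dim probes, the pairing of litters dropped, litter or slide as a random block, a dye term, the methods' t-test, probe means and leaving out each litter) 0 contractile genes passed the adjusted threshold. Treating arrays rather than litters as the units called 341 probes of the whole array where the random block was litter and 717 where it was slide, none of them the brightest probe of a contractile gene. At 2-fold with an unadjusted p under 0.05 the count ranged from 0 to 1 when 1 litter was left out. The single call was Cnn1 without litter 112, with a mean of 1.57 that rests in part on a bound in litter 116, in a setting that called 352 of 22642 probes against 189 with all litters. The median of the mean ratios was 0.11 with no replicate block, the same as with the pairing, 0.0123 with slide as a random block, 0.034 with median centring and 0.326 with the strict filter, and with 1 litter left out it ranged from -0.21 (without litter 116) to 0.70 (without litter 112). The strict filter left 6 genes.

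Means near 0 changed sign. Myh11 was -0.0618 with processed signals, -0.0616 with the value table and -0.00507 with median centring, and 1 litter left out gave -0.0245 to 0.049. With slide as a random block Smtn was -0.121 and Tpm1 -0.0318, and Mylk was 0.0011 as a mean over its probes. The mean of Cnn1 was 0.67 with processed signals, 0.665 with the value table and 0.61 with slide as a random block. That of Mylk was -0.171 with processed signals and with the value table. With 1 litter left out the lowest and highest means were -0.406 and 1.57 for Cnn1, -0.542 and 0.432 for Smtn, -0.767 and 0.704 for Tpm1, -0.068 and 2.11 for Tagln, -0.211 and 0.113 for Mylk and -0.601 and 0.0868 for Tpm2. Acta2 and Actg2 kept a positive mean in all 14 alternatives that gave one, but without litter 116 the mean fell to 0.0282 for Acta2 and to 0.168 for Actg2. Signal over background limits Myh11, Mylk and Des.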

Other observations

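Some markers of other contractile cells are given here, named after their values were seen. Cspg4, the NG2 proteoglycan of pericytes, was lower in Lats2-/- cells in every litter, with ratios of -2.10, -4.14 and -3.94 in litters 112, 116 and 121. The other pericyte markers above background in all extracts did not share this sign throughout, with ratios of 0.87, 0.87 and -0.14 for Pdgfrb, 0.23, 0.77 and 0.13 for Notch3 and 0.50, 2.26 and -0.13 for Anpep. In the Lats2-/- extract of litter 121 the heart muscle genes Tnnt2 and Myh7 were higher by 3.32 and 3.07, while Myh6, Myl7 and Myl2 were not above background in any extract. The other cardiac markers above background in both extracts of that litter had ratios of 0.81 for Nkx2-5, 0.55 for Actc1, 0.005 for Tnni3 and -0.40 for Nppa. Each of these values comes from the arrays of 1 litter.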
